A study of Bos taurus with 8 samples.

Results

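The antiviral restriction factors described here are 5 host genes, BST2, MX2, SAMHD1, RSAD2 and TRIM5, chosen by name as the probes that carry one of these symbols in the scanner files. They are 5 of 17919 named genes and 10 of 51282 probes on a bovine expression array. The samples came from bovine eyes and are labelled as primary Müller glia, the radial glia of the retina, kept in culture for 18 to 21 days. Control cells (2 arrays, letters A and B) were set against cells given recombinant HIV-1 TAT at 100 ng/ml (3 arrays, letters A, B and C) or HIV-1 gp120 at 60 ng/ml (3 arrays, letters A, B and C), all collected at 24 h. TAT is the transactivator of viral transcription and gp120 the surface glycoprotein of the envelope, and the labels name proteins alone, with no virus. The treatment text is the same for every sample and names both proteins together, so the groups follow the sample titles. The extraction text speaks of astrocytes. The labels do not say whether the letters mark separate cultures or animals, and the p-values below measure the spread between these samples, which may be technical.

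Restriction factors are proteins with which a cell blocks steps of viral replication, and many are induced by type I interferon. TRIM5 binds the incoming retroviral capsid, SAMHD1 breaks down the deoxynucleotides that reverse transcription needs, and MX2 acts against the viral genome on its way into the nucleus. RSAD2 (viperin) is a radical SAM enzyme that makes a chain-terminating nucleotide, and BST2 (tetherin) holds newly budded particles at the cell surface. These genes are read as part of the interferon response in glia and other cells.

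BST2 had 2 probes, MX2 and SAMHD1 had 1 each, RSAD2 had 2 and TRIM5 had 4, and each probe is a 60-base oligonucleotide. The probes of TRIM5, BST2 and RSAD2 are printed because the results differ between probes of the same gene. In probes 1 and 2 of TRIM5 the capitals mark the 3 bases that differ over 46 aligned bases (93.5% identity), and in probes 3 and 4 they mark a shared stretch of 27 bases.
TRIM5 probe 1: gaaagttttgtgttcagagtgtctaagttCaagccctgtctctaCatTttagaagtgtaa
TRIM5 probe 2: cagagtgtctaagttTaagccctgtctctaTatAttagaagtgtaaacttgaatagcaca
TRIM5 probe 3: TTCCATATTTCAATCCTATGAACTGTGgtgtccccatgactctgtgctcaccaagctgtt
TRIM5 probe 4: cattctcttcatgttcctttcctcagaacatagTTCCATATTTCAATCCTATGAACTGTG
BST2 probe 1: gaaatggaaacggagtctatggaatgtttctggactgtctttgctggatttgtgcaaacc
BST2 probe 2: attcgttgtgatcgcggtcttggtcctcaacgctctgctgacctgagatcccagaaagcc
RSAD2 probe 1: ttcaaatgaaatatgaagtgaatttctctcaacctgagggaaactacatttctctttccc
RSAD2 probe 2: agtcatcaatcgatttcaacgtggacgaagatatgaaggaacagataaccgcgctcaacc
In the build of the file headers, HGSC Btau_3.1, TRIM5 probe 1 lies at chr15:47282945-47283004 (transcript NM_001205305) and probe 2 at chr15:47231282-47231341 (transcript NM_001034798), 51663 bp apart and both on the minus strand. A cRNA of one TRIM5 copy may bind the probe of the other, and signals of the copies cannot be told apart from these oligonucleotides. TRIM5 probe 3 (chr15:47231843-47231902) and probe 4 (chr15:47231876-47231934) belong to the transcript of probe 2. BST2 probe 1 lies at chr7:5680454-5680513 (ENSBTAT00000066038) and probe 2 at chr7:5688536-5688595 (ENSBTAT00000010544) on the plus strand. Their starts are 8082 bp apart, and the best ungapped alignment between them held 16 mismatches over 31 bases. RSAD2 probe 1 lies at chr11:92860213-92860272 on the minus strand, 121 bp along the same transcript's locus from probe 2 (chr11:92860107-92860151). MX2 was read at chr1:144423490-144423549 and SAMHD1 at chr13:66500448-66500507. Whether a probe lies in coding or untranslated sequence was not determined here. No probe of another gene shared a run of 20 bases with any of these oligonucleotides.

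Between 55.5% and 64.6% of spots per array were well above background, and 0 member probes were saturated. All values below are log2 signals relative to the array's 75th percentile, on which a difference of 1 is a 2-fold change, and a level is read only against the same probe on another array. The test covered 9 of the 10 probes, since RSAD2 probe 2 was well above background on Control A alone (1 of 8 arrays). The layout of the arrays touches the results. The scanner took gp120 arrays B and C in scan 1 and the other 6 arrays in scan 2. Both controls, TAT A and gp120 A sat in slide row 1 and the remaining 4 arrays in row 2, which held no control. In bulk RNA, fewer cells of a type and less RNA per cell cannot be told apart. Of the Müller glia markers, 9 of 12 on the array were well above background on all 8 arrays, but RLBP1 and GFAP reached this on only 2 arrays each. Microglia and macrophage markers were well above background on all arrays for 13 of 14 genes, with a summed level of 8.85 to 9.38 in the controls, 8.98 to 9.14 with TAT and 9 to 9.17 with gp120. Their part in the results was not tested.

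Most restriction factor probes averaged lower with either protein, but no difference passed the test against the spread between arrays. With TAT, 9 of 9 tested probes had a mean below the controls, and with gp120 8 of 9 did. Their differences did not pass the limma test at an adjusted p of 0.05 with TAT, with gp120 or between the proteins (0 of 9 each, and 0 of 9 with the letter as a block). Over the array 0 of 31153 probes (0%) passed in each of the 3 comparisons, while at an unadjusted p under 0.05 there were 414 probes (1.33%) with TAT, 1328 (4.26%) with gp120 and 1226 (3.94%) between the proteins. At an unadjusted p under 0.05, 0 of the 9 member probes counted with TAT, 1 with gp120 and 0 between the proteins. With the letter as a block these counts were 2, 3 and 2, where 4.14%, 7.52% and 10.2% of all probes counted, and RSAD2 with gp120 had the smallest p among the members (unadjusted 0.000713, adjusted 0.646, limma). Of all probes, 54.6% lay below 0 with TAT, 51.3% with gp120 and 53.6% for TAT minus gp120, where 6 of the 9 member probes did.

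**Figure D1:**
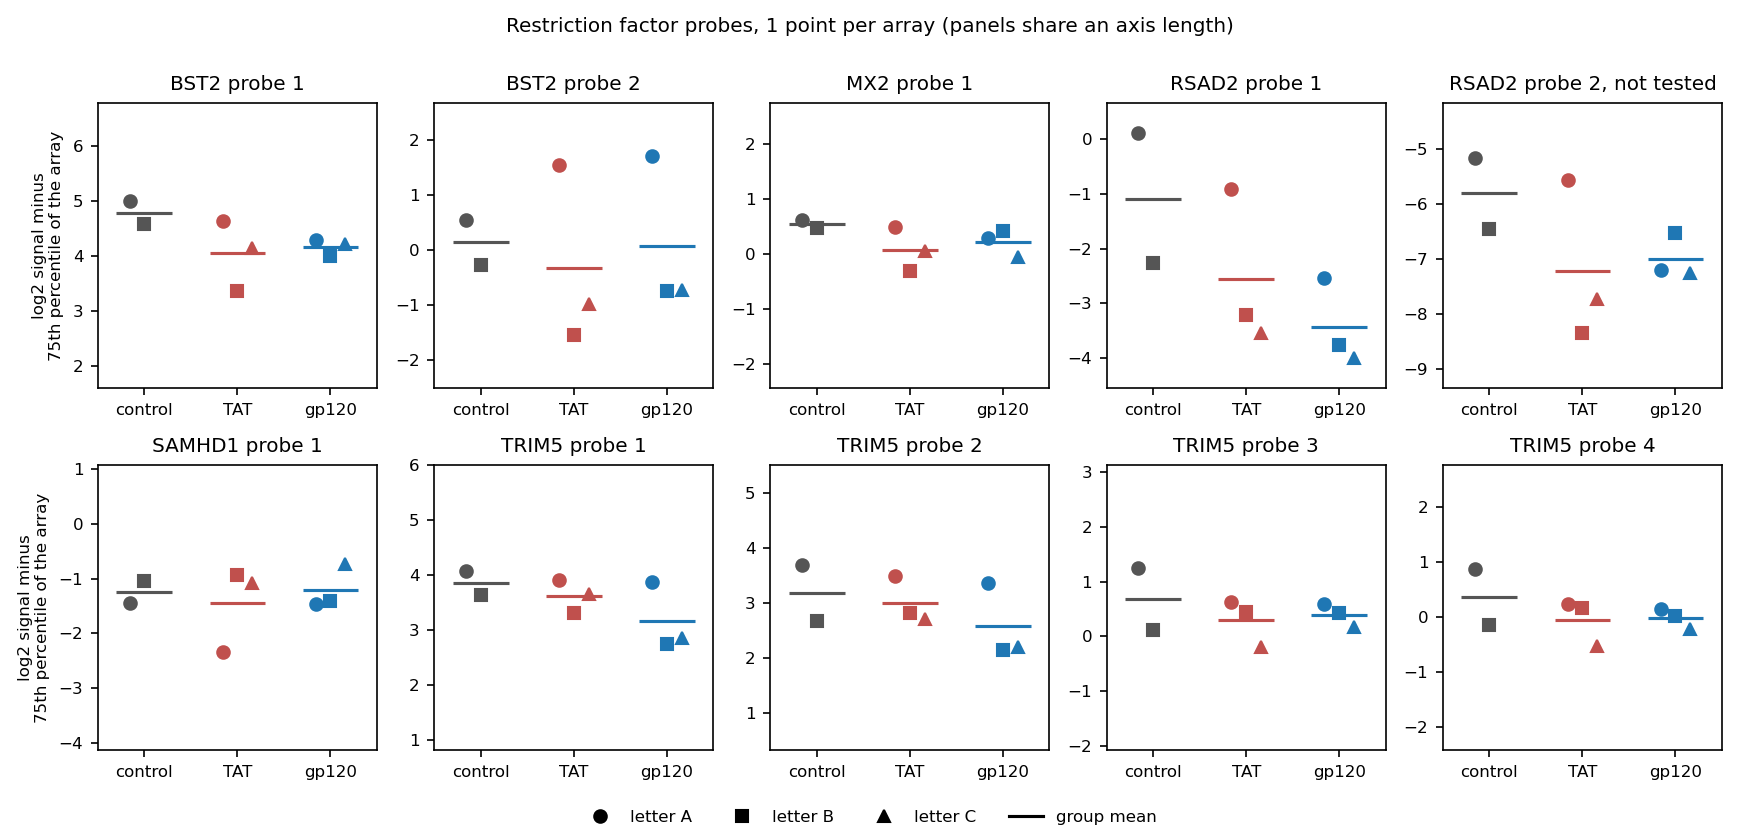
Log2 signal minus the array's 75th percentile (vertical axis) for the 10 restriction factor probes, 1 point per array, grouped by treatment (horizontal axis), with the shape giving the letter and the bar the group mean. RSAD2 probe 1 spans 4.09 over the 8 arrays, from 0.10 on Control A to -3.99 on gp120 C, while MX2 spans 0.93.

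RSAD2, the enzyme that makes the chain-terminating nucleotide, had the largest differences among the tested probes. Its probe 1 read 0.10 and -2.27 on Control A and B. It read -0.91, -3.21 and -3.53 on TAT A, B and C and -2.54, -3.76 and -3.99 on gp120 A, B and C. All 3 gp120 arrays were below both controls, whereas TAT A lay between the controls. The difference between gp120 and control was -2.35 (SE 0.95), a 5.08-fold lower mean, to which limma gave an adjusted p of 0.964 (unadjusted 0.0387) and a 95% interval from -4.53 to -0.16. With TAT the difference was -1.46 (SE 0.95; adjusted p = 1, limma).
The controls themselves lay further apart than the TAT and control means, and about as far apart as the gp120 and control means. Left without Control A, the gp120 difference in RSAD2 was -1.16, and left without Control B it was -3.53. Within slide row 1 the gp120 difference was -1.45 on gp120 A alone, which is also the value within scan 2, and TAT A lay 0.18 above the mean of the controls. The same-letter pairs were lower in each case: gp120 minus control was -2.64 for A and -1.49 for B, and TAT minus control was -1.01 for A and -0.94 for B. With the letter as a block the differences were -1.96 (SE 0.33) with gp120 and -1.08 (SE 0.33) with TAT, at adjusted p of 0.646 and 0.999 by limma. RSAD2 probe 2, which was not tested, read -5.15 on Control A, the 1 array with a signal well above background, and -6.44 on Control B. It read between -8.35 and -5.55 on the treated arrays, with TAT A (-5.55) above Control B.

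BST2, the tether of budding particles, had its values on 2 transcripts. Probe 1 read 5.01 and 4.58 in controls, 4.64, 3.37 and 4.14 with TAT and 4.30, 4.00 and 4.21 with gp120. All 3 gp120 arrays and 2 of the 3 TAT arrays were below both controls, TAT A being the exception. The difference was -0.74 (SE 0.37; adjusted p = 1) with TAT and -0.63 (SE 0.37; adjusted p = 0.964) with gp120 by limma, or 1.67-fold and 1.54-fold lower. The pairs by letter were -0.37 and -1.20 with TAT and -0.71 and -0.58 with gp120.
Probe 2 did not follow this order. It read 0.55 and -0.28 in controls, 1.55, -1.55 and -0.99 with TAT and 1.71, -0.74 and -0.73 with gp120, so that the A array of each protein was above both controls and the other arrays below both. Its differences were -0.46 with TAT and -0.06 with gp120, each with an SE of 1.03. The difference of probe 1 over probe 2 within an array was 2.59 on gp120 A and 3.09 on TAT A and between 4.46 and 5.12 on the other 6 arrays. No group difference in it passed (exact permutation test, two-sided, p = 1 for TAT, 0.9 for gp120 and 0.6 between the proteins; the smallest p the design allows is 0.1).

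MX2, which acts at the nuclear entry of viral genomes, read 0.62 and 0.47 in controls, 0.48, -0.32 and 0.05 with TAT and 0.29, 0.41 and -0.05 with gp120. The 3 gp120 arrays were below both controls, though gp120 B (0.41) lay close to Control B (0.47), and TAT A lay between the controls. The difference was -0.33 with gp120 (SE 0.29; adjusted p = 0.964) and -0.47 with TAT (SE 0.29; adjusted p = 1) by limma.

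BST2 probe 1, MX2 and RSAD2 probe 1 were thus the 3 of 9 tested probes whose gp120 arrays did not overlap the controls in the lower direction, against 8.33% of all probes. With TAT, 0 of 9 did so against 9.07%. None of the 3 passed the test, and for RSAD2 and BST2 the arrays of letter A and slide row 1 were the higher ones within the gp120 group.

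**Figure D2:**
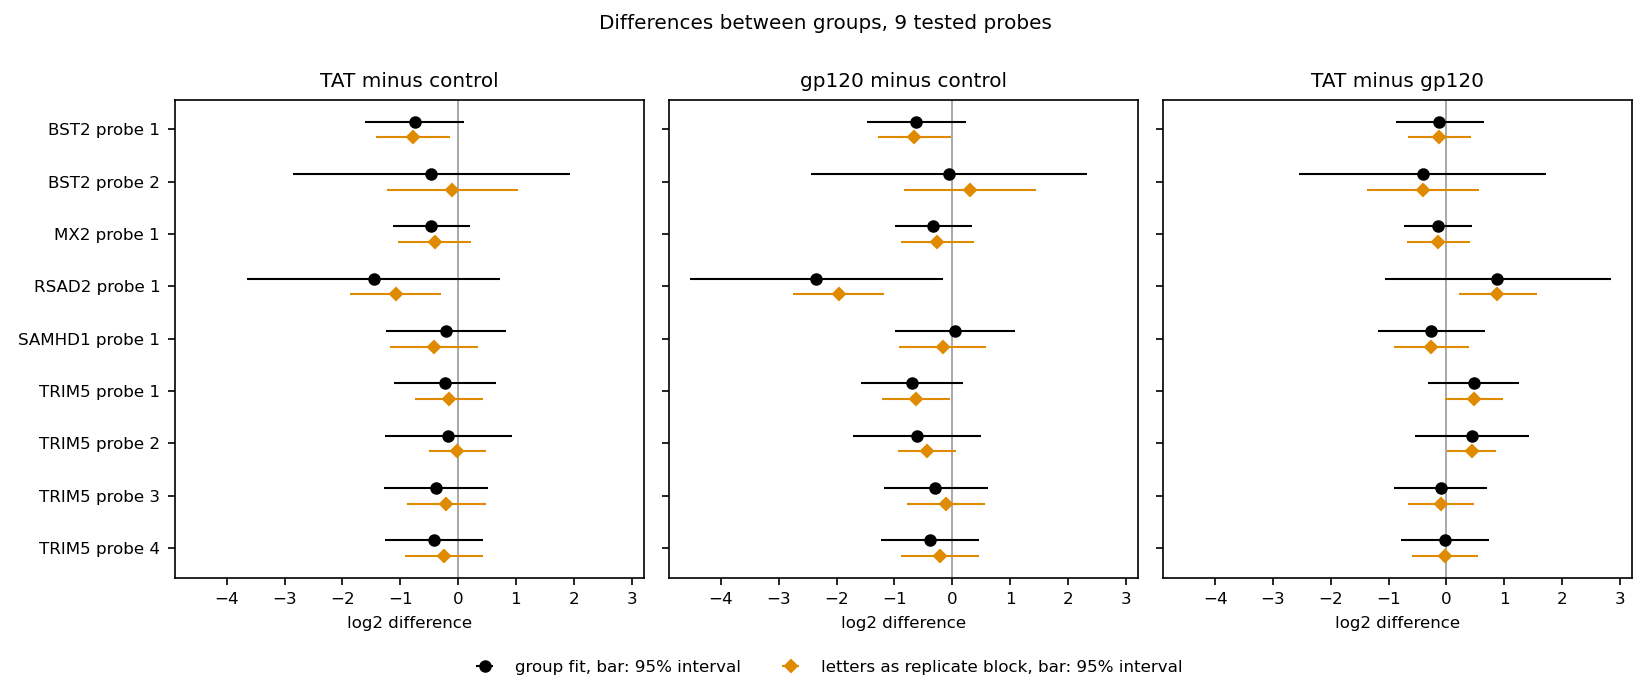
Log2 differences (horizontal axis) of the 9 tested probes for the 3 comparisons, from the fit without a block (black) and with the letters as a replicate block (orange), each with its 95% interval. The interval of RSAD2 probe 1 with gp120 is -4.53 to -0.16 without the block and -2.75 to -1.18 with it, and no adjusted p in either fit was under 0.05.

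TRIM5, the capsid sensor, gave 4 probes. Probe 1 read 4.07 and 3.63 in controls, 3.91, 3.31 and 3.65 with TAT and 3.87, 2.74 and 2.86 with gp120. Probe 2 read 3.68 and 2.67 in controls, 3.48, 2.81 and 2.71 with TAT and 3.36, 2.14 and 2.19 with gp120. In both probes gp120 B and gp120 C, the arrays of the separate scan, were the 2 lowest of all 8. The gp120 difference was -0.70 (SE 0.38; adjusted p = 0.964, limma) for probe 1 and -0.61 (SE 0.48) for probe 2. Within scan 2, where gp120 has only its A array, the difference for probe 1 was 0.01, so scan and treatment cannot be told apart for gp120 B and C.
Probe 3 read 1.24 and 0.12 in controls, 0.63, 0.45 and -0.19 with TAT and 0.59, 0.42 and 0.17 with gp120. Probe 4, which shares 27 bases with it, read 0.87 and -0.15, then 0.23, 0.17 and -0.53, then 0.15, 0.01 and -0.22 in the same order. In these probes Control A was the highest array, and gp120 B and C lay within the range of the other arrays. TAT differences ran from -0.41 to -0.17 over the 4 probes (adjusted p = 1 for each, limma). The mean of probes 1 and 2 over that of probes 3 and 4 was 2.82 and 3.16 in controls, 3.27, 2.75 and 3.54 with TAT and 3.25, 2.23 and 2.55 with gp120, with p = 0.2 between the proteins (exact permutation test, two-sided).

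SAMHD1, the deoxynucleotide hydrolase, read -1.44 and -1.05 in controls, -2.33, -0.94 and -1.09 with TAT and -1.46, -1.40 and -0.73 with gp120. TAT A was the lowest array and gp120 C the highest. The difference was -0.21 with TAT (SE 0.45; 95% interval -1.25 to 0.83) and 0.05 with gp120 (SE 0.45; -0.99 to 1.09). The direction with TAT rested on TAT A, without which it was 0.23. With the letter as a block the gp120 difference changed sign to -0.16.

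Between the proteins, RSAD2 was 0.88 higher with TAT than with gp120 (SE 0.85; adjusted p = 1, limma), and the pairs were 1.63, 0.56 and 0.47 for A, B and C. TRIM5 was higher with TAT by 0.47 (SE 0.34) in probe 1 and 0.44 (SE 0.43) in probe 2, with all 3 pairs above 0 in each probe (0.05, 0.57 and 0.79, then 0.11, 0.67 and 0.52). Probes 3 and 4 of TRIM5 differed by -0.10 and -0.02. BST2 probe 2 differed the other way, by -0.41 (SE 0.92), with its pairs at -0.16, -0.81 and -0.25. BST2 probe 1, MX2 and SAMHD1 differed by -0.12, -0.14 and -0.26. None of the 9 probes had groups that did not overlap, against 7.86% of all probes. Within scan 2 the RSAD2 difference was -0.01 and that of TRIM5 probe 1 was -0.24, each on 3 TAT arrays against gp120 A.

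**Figure D3:**
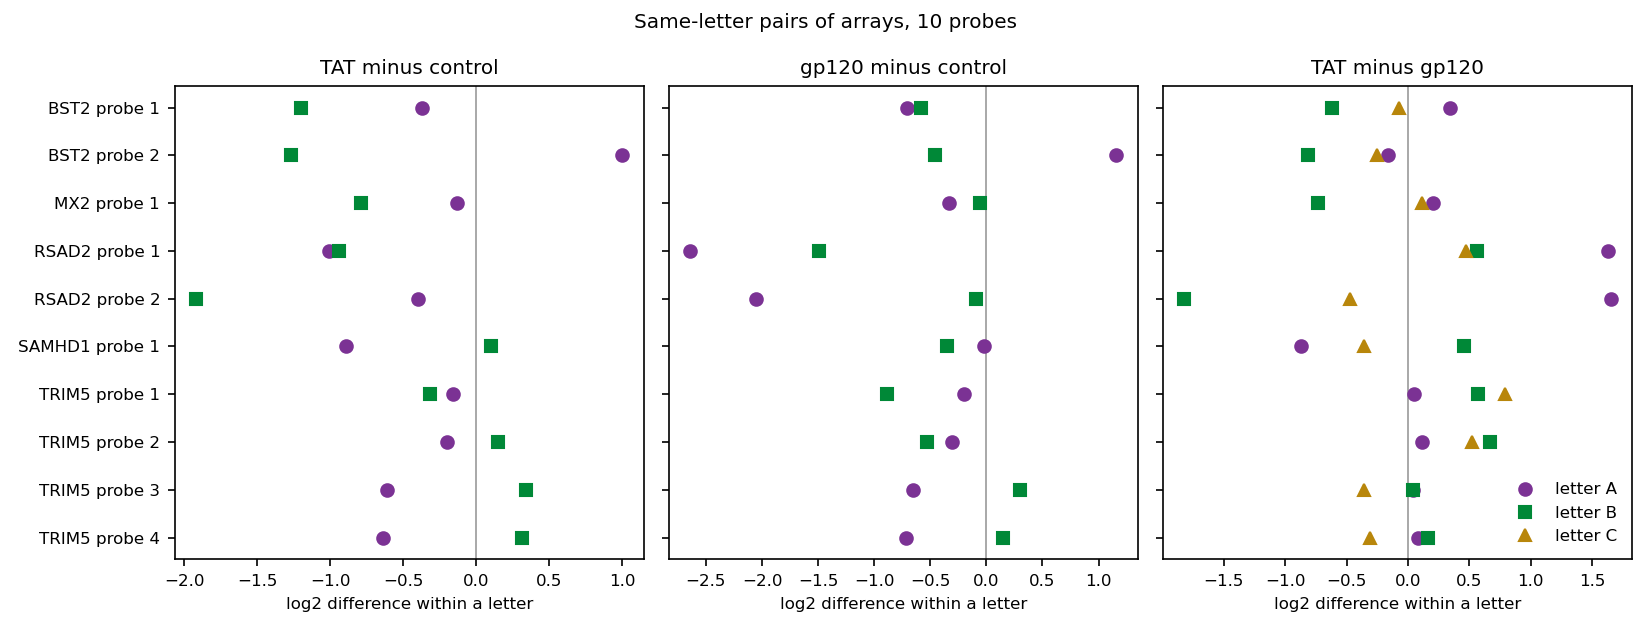
Log2 differences within a letter (horizontal axis) for the 10 probes and the 3 comparisons, 1 point per pair of same-letter arrays. Over the 9 tested probes, 13 of 18 pair values lie below 0 with TAT, 15 of 18 with gp120 and 10 of 27 for TAT minus gp120. These counts are a description, given without the share over all probes. Probes of the same gene and comparisons that share the controls are not separate observations.

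Arrays with the letter A stood apart from those with B and C in RSAD2, in BST2 probe 2 and in TRIM5 probe 2. This contrast was chosen after the data were seen. It sets A against the mean of B and C with the group in the fit. RSAD2 probe 1 was higher in letter A by 2.05 (SE 0.26; adjusted p = 0.00518, limma), BST2 probe 2 by 2.14 (SE 0.37; 0.0135) and TRIM5 probe 2 by 0.97 (SE 0.16; 0.0118). These were 3 of 9 probes, where 18.4% of all probes passed in either direction and 9.12% were higher in A. For SAMHD1 the value was -0.78 (SE 0.25; adjusted p = 0.0729) and for TRIM5 probe 1 0.64 (SE 0.19; 0.062). BST2 probe 1 and MX2 had 0.45 and 0.31, neither past the test. With slide row as a block none of the 3 calls remained. The difference was then 2.51 for RSAD2 (adjusted p = 0.0996, limma), 1.02 for TRIM5 probe 2 (0.198) and 0.69 for BST2 probe 2 (0.364). In the treated groups letter A is row 1 and letters B and C are row 2. Letter and row cannot be told apart there. With the row block, the step from A to B is therefore estimated from Control A and Control B alone. With scan as a block RSAD2 kept its call (2.48, adjusted p = 0.00781, limma), and BST2 probe 2 (1.96, 0.0736) and TRIM5 probe 2 (0.84, 0.0567) did not. For this contrast the scan block gives the same differences as leaving out gp120 A, so they are not separate checks. The RSAD2 call remained when any 1 array was left out. The BST2 probe 2 call was lost without TAT A, gp120 A or gp120 C, with differences of 1.74, 1.96 and 2.09 at adjusted p of 0.0645, 0.0766 and 0.0632. The TRIM5 probe 2 call was lost without TAT C, gp120 A or gp120 C, with differences of 1, 0.84 and 0.94 at adjusted p of 0.0544, 0.0577 and 0.0715.

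Among other interferon-related genes, the letter A contrast gave higher values for 4 of 20 interferon-induced effectors, against 8.98% of all genes. These were IFIT1 (1.46), IFIT3 (1.52), OAS1Z (1.44) and OAS2 (0.96). The lists were chosen with earlier results of these data known, so such counts are a description. Of 26 other restriction factors, CH25H (2.15), HERC5 (1.29) and SERINC3 (0.73) were higher in A and SERINC5 (-0.97) lower. The sensors CGAS (1.23) and IFIH1 (1.33) and the transcription factor IRF7 (0.92) were higher among 21 signalling entries. Of 17 genes around SAMHD1 function, 5 were lower in A, against 10.4% of all genes, and 2 higher. CCNA2 (-1.47) and CDK1 (-1.11), the cyclin and kinase that modify SAMHD1 in cycling cells, and RRM2 (-0.96), a subunit of ribonucleotide reductase, were lower with DUT and NT5C, while CCND2 and RRM2B were higher. Of 9 Müller glia markers tested, PAX6 (-2.94), CRYAB (-1.48) and SLC1A3 (-1) were lower in A and S100B (0.68) was higher. Of 4 astrocyte markers GJA1 (-2.86) was lower and S100B again higher, and of 5 endothelial markers KDR (-1.29) was lower and TEK (0.73) higher. No microglia, fibroblast or retinal neuron marker passed (0 of 14, 0 of 9 and 0 of 3). Their part in the letter contrast was not tested.

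The wider restriction and interferon lists were read for the treatments too, 1 probe per gene. They were chosen with earlier results of these data known, so their counts beside the share of all genes are a description. Genes of a list were read on the same arrays and are not separate observations. With TAT, 19 of 20 interferon-induced effectors averaged below the controls, with a median of -0.42, against 56.3% of all genes and a median of -0.04. None of the 20 passed the test. PARP9 (-0.42, SE 0.28) and OAS1X (-0.42, SE 0.30) had the smallest p. With gp120, 17 of 20 were below 0 with a median of -0.23, against 53.7% and -0.03. IFIT2 had the largest difference at -1.67 (SE 0.59, adjusted p = 0.964, limma). EIF2AK2, the double-stranded RNA kinase, had -0.57 (SE 0.27).
Of 26 other restriction factors, 19 were below 0 with TAT (median -0.15) and 17 with gp120 (median -0.19), and 0 passed in either. SAMD9 had -1.23 (SE 0.33; unadjusted p = 0.00615, adjusted 0.964, limma) with gp120 and was 1.1 higher with TAT than with gp120. ZC3HAV1, which binds CpG-rich viral RNA, had -0.80 (SE 0.36) with gp120 and -0.42 (SE 0.36) with TAT. HERC6 had -0.56 (SE 0.34) with TAT.
Of 21 signalling entries, in which 1 sensor gene appears under its older symbol DDX58 and its current symbol RIGI through different probes, 16 were below 0 with TAT and 12 with gp120. With gp120 the DDX58 probe of the RNA sensor had -1.17 (SE 0.36; adjusted p = 0.964, limma), but its RIGI probe had 0.31 (SE 0.44), so the probes disagreed in sign. For TAT minus gp120 they had 0.68 and -0.69. IRF2 had -1.18 (SE 0.46; adjusted p = 0.964, limma) with gp120. STING1, an adaptor of cytosolic DNA sensing, had 0.82 (SE 0.50; adjusted p = 1, limma) with TAT.
The 17 genes around SAMHD1 function, of the cell cycle and of nucleotide metabolism, lay on both sides of 0. They ran from -0.52 (RRM2B) to 0.70 (CDK1) with TAT and from -0.28 (RRM2B) to 0.72 (RRM2, SE 0.51) with gp120. Their medians were 0.18 with TAT and 0.03 with gp120, and 0 passed the test. The 7 capsid and uncoating factors had medians of -0.11 and -0.07, and CPSF6, which carries capsids into the nucleus, had -0.69 (SE 0.33) with gp120. Both comparisons share the 2 control arrays, so their like directions are not independent. Fibroblast and stromal markers averaged higher with TAT for 9 of 9 genes and with gp120 for 8 of 9, none past the test. Of all 12269 genes tested, 5361 were higher with TAT and 5678 with gp120. The summed level of these markers was 7.11 to 7.14 in controls, 7.52 to 7.98 with TAT and 7.06 to 7.41 with gp120. Their part in these differences was not tested.

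**Figure D4:**
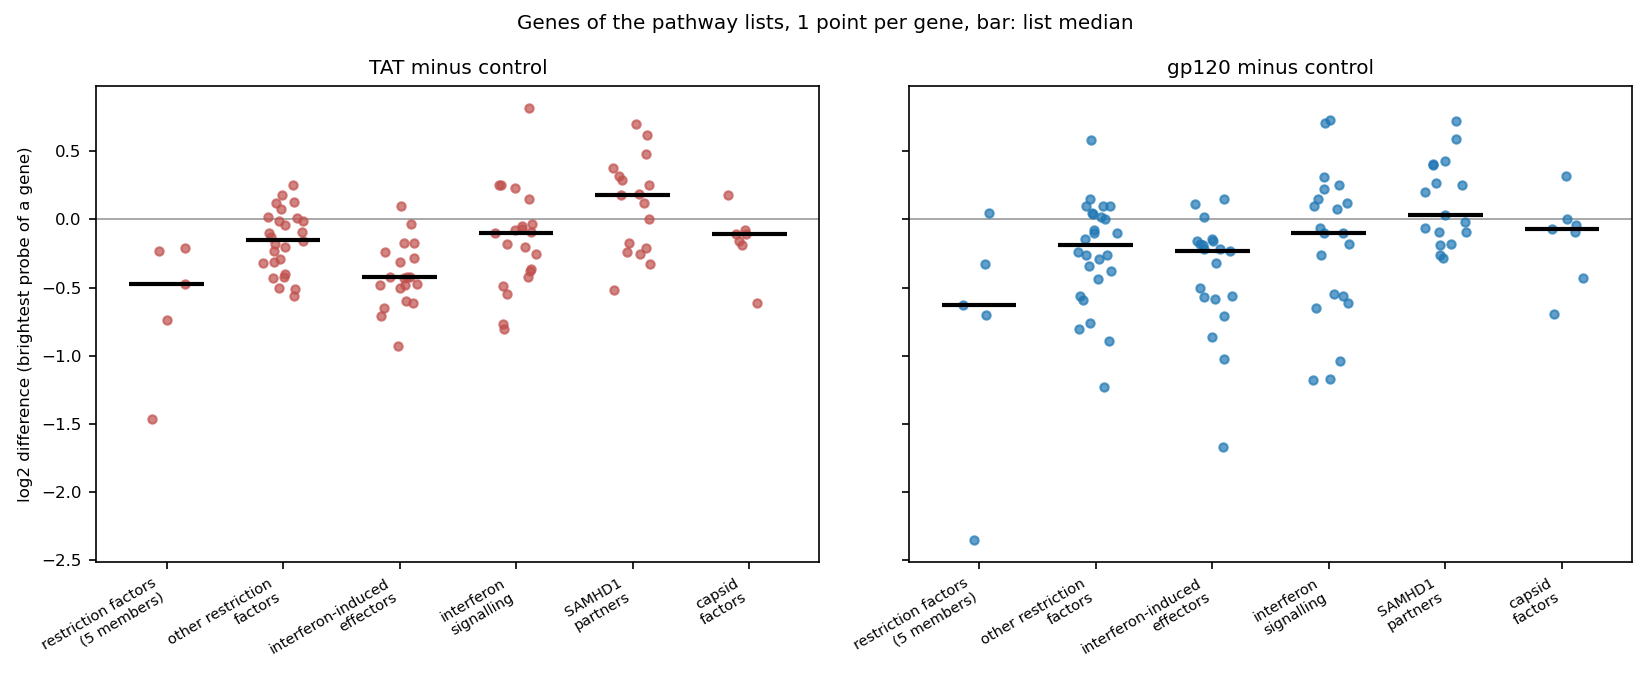
Log2 difference from control (vertical axis) of the brightest probe of each gene, 1 point per gene, for TAT (left) and gp120 (right), with a bar at the median of each list. The median of the interferon-induced effectors is -0.42 with TAT and -0.23 with gp120. That of the genes around SAMHD1 function (axis label SAMHD1 partners) is 0.18 and 0.03.

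Over the 8 arrays the restriction factors varied together in part, which is given as a description because arrays share letters and scans. TRIM5 probes 1 and 2 correlated at r = 0.928 and probes 3 and 4 at 0.99, while probe 1 against probe 3 gave 0.436. BST2 probe 1 correlated with MX2 at 0.852 and with BST2 probe 2 at 0.66. RSAD2 probe 1 correlated with TRIM5 probe 2 at 0.878. SAMHD1 was negative against all 8 other tested probes, from -0.761 with BST2 probe 2 to -0.426 with TRIM5 probe 4. Of 11177 other genes, those with the highest r over the 8 arrays were COPB1 (0.966), ARHGAP24 and MGST3 for BST2, SRGAP2 (0.961), CDADC1 and TRIB3 for MX2, and PRMT8 (0.983), UXT and CCDC88C for SAMHD1. For RSAD2 they were WDR18 (0.983), SLC2A1 and GNG5, and for TRIM5 PAXBP1 (0.991), CEP164 and SEC61B. Picking the highest of 11177 values over 8 arrays itself favours a high r, and no relation between these genes was tested.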

How the data were processed

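Total RNA was labelled with Cy3 and each sample was read on 1 Agilent bovine array (design 029411). The deposited intensity of each spot is the processed signal of Agilent Feature Extraction (version 11.5.1.1, per the file headers), with background subtracted and no scaling from array to array. A deposited table of log2 values, made by steps not stated in the labels or headers, served as an alternative. Here log2 was taken of each processed signal, less the 75th percentile of its array. Control spots were dropped, as were 4 to 37 outlier spots per array, and spots of one probe were averaged. Of 51282 probes, 31198 had every spot well above background throughout 1 group or more, and the 31153 of these without a gap were tested with limma 3.58.1 (R 4.3.3; lmFit and eBayes on 8 arrays, group only, two-sided, Benjamini-Hochberg over probes, threshold 0.05), and the script was tested on simulated data. The number of arrays limits the precision. Alternatives were normexp (offset 50), quantile and median scaling, no filter, genes in place of probes, blocks for letter, row and scan, the table, and each array left out.

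The members and lists were chosen with earlier results of these data known. Named genes are the members, the 2 genes of smallest p per list and comparison, and the 3 genes most correlated with each member. One gene that the rule picks is not reported here. Genes named for the letter contrast were chosen after their values were seen. The brightest probe stood for a gene with several. Symbols were updated through a RefSeq gene table where it held the probe's accession, symbol or synonym. Deviations from group means correlated at 0.326 to 0.707 between arrays of the same letter (7 pairs) and at -0.6 to 0.407 between different letters. Same-letter pairs and the letter block were read beside the main fit, which held group only. A link between arrays of the same letter comes from the data and not from the labels. Deviations sum to 0 within a group, so the ranges for same and different letters are not separate evidence. In the treated groups letter and slide row cannot be told apart, so the link may be one of row.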

Additional observations from a re-analysis of the deposited data

How the results depend on the processing

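Over 18 alternative settings, the 15 differences of the 5 genes gave 270 values, of which 253 kept their direction and 0 passed the threshold (lowest adjusted p 0.217, limma). The differences from control of RSAD2, BST2 and MX2 kept theirs under all 18, though not their size. Leaving out 1 array gave -1.04 to -0.40 for BST2 and -0.67 to -0.27 for MX2 with TAT, -0.84 to -0.41 and -0.43 to -0.19 with gp120, and for TRIM5 -0.45 to -0.01 with TAT and -1.05 to -0.48 with gp120. RSAD2 ran from -3.53 to -1.08 with gp120, with -1.17 under normexp, -1.08 with slide row as a block and -1.08 in the deposited table. With TAT it ran from -2.65 without Control B to -0.19 with slide row as a block. With that block BST2 was -0.38 with TAT and -0.26 with gp120, and MX2 was -0.23 and -0.09. SAMHD1 with TAT moved the other way, to -0.78. TAT minus gp120 turned with letter and scan as blocks together, an alternative chosen after seeing the data, for BST2 (0.16) and MX2 (0.08). With scan as a block it turned for RSAD2 (-0.01), SAMHD1 (0.01) and TRIM5 (-0.24), and in the deposited table for MX2 (0.03). Leaving out TAT B turned it for BST2 (0.22) and MX2 (0.05), and leaving out TAT A for SAMHD1 (0.18). SAMHD1 with TAT turned without TAT A (0.23). SAMHD1 with gp120 turned with the replicate block (-0.16), slide row (-0.53) or scan (-0.22) as a block, and without Control A (-0.15) or gp120 C (-0.19). TRIM5 turned with slide row as a block with TAT (0.27) and with scan as a block with gp120 (0.01). Leaving out 1 array gave ranges of -0.41 to 0.22 for BST2, -0.35 to 0.05 for MX2 and -0.51 to 0.18 for SAMHD1 between the proteins, and for SAMHD1 -0.47 to 0.23 with TAT and -0.19 to 0.25 with gp120. The cause was not tested.

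Counts of called probes were 0 in the 3 comparisons and stayed 0 with the replicate block. The deposited table gave 4 with TAT, 3 with gp120 and 15 between the proteins. Leaving out 1 array gave 0 to 33 with TAT (33 without Control A, 10 without Control B) and 0 to 14 with gp120 (14 and 8), and 0 between the proteins in every case. Without either control the group is 1 array, assumed to vary like the others. Without the filter on dim probes the median of all probes moved to 0.11 with gp120 and -0.13 between the proteins. Of the letter contrast's settings, RSAD2 kept its call in 14 of 15, and BST2 probe 2 and TRIM5 probe 2 in 9 of 14 each, while TRIM5 probe 1 gained one in 2 of 15. The settings of the letter contrast are not all separate checks. Scan as a block gave the same differences as leaving out gp120 A, and leaving out Control A gave the same as leaving out Control B. RSAD2 probe 2 limits its gene to 1 measured probe, since it was near background on 7 of 8 arrays.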
